A study of Mus musculus with 6 samples.

Results

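The 37 genes described here were chosen by their level in 1 of 6 RNA-seq libraries of mouse granulosa cells, the third library labelled knockout (KO replicate 3). Levels are CPM, the gene's count scaled to the sum of all counts in its library. A gene was selected on having at least 5 CPM in KO replicate 3 and at least 3 times the highest CPM among the other 5 libraries. Of 49315 genes in the files, 15026 reached 1 CPM in any library and 50 met both thresholds, 0.333% of the 15026. Of these 50, 13 were set aside by name (Areg, Ereg, Nr4a1, Nr4a2, Nr4a3, Ptgs2, Pgr, Tnfaip6, Has2, Egr2, Egr3, Junb and Cyp19a1), from a list of 23 names. Apart from Cyp19a1, these are well-known genes of the ovulatory response. The question asked of the remaining 37 was what they hold of a response of the kind that luteinizing hormone (LH) sets off. The difference between KO replicate 3 and the other libraries is what chose the genes. It is therefore given below as a description, with no test.

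The study took freshly isolated granulosa cells, the somatic cells that surround the oocyte in the follicle, from the ovaries of C57BL/6J mice aged 8 to 9 weeks. There were 3 libraries labelled wild type (WT) and 3 labelled knockout of Jmjd3, also named Kdm6b, a histone demethylase that removes methyl groups from lysine 27 of histone H3. The series describes the knockout as specific to granulosa cells. Which Cre driver was used, which exons it removed, and at what cycle stage or after what hormone the ovaries were taken is not stated in the labels. Nor is it stated whether each replicate was its own animal, so a p-value here measures library-to-library spread that may be only technical.

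The surge of LH before ovulation acts on a receptor of granulosa cells that raises cyclic AMP and activates protein kinase A. The kinase phosphorylates CREB, a transcription factor that binds the cyclic AMP response element (CRE) in promoters, and genes respond within hours. Early targets include transcription factors, phosphodiesterases and kinases that damp the signal, and ligands of the epidermal growth factor (EGF) family that carry it to the cumulus cells. Later steps involve the progesterone receptor, prostaglandins and remodelling of the matrix, while genes of the growing follicle fall. Many of the early genes also respond to other stimuli in other cells, such as growth factors or stress.

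Library totals ran from 42379018 counts (KO replicate 2) to 49901493 (WT replicate 1), and KO replicate 3 was within that range. Mitochondrial genes took 4.55% to 6.30% of counts, with 5.04% in KO replicate 3. Each of 14 granulosa cell markers, among them Fshr, Foxl2, Inha and Nr5a2, stood at 60.2 CPM or more in every library. The targeted gene, Kdm6b, stood at 74.9, 66.4 and 68.0 CPM in the WT libraries and at 62.4, 68.8 and 109 CPM in the KO libraries, so only KO replicate 1 lay below all WT libraries, and the group labels have no check from it. The same thresholds, applied to each of the other libraries in turn, selected 2 genes for WT replicate 1, 1 gene for KO replicate 1 and 0 for the other 3 libraries. KO replicate 3 therefore stood apart from all 5 others. The labels give no date, run or batch that could be set beside this.

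Promoter sequences are shown first, since the CRE is the element through which the LH signal is best known to reach its early genes. RefSeq promoter windows on GRCm38.p6, from 250 bases before to 50 bases after a transcription start, were matched by symbol for 27 of the 37 genes. The full CRE, TGACGTCA, was found on either strand in the windows of 5 of the 27, which is 18.5%, against 2.03% of the genes in the whole table and 3.40% of those at 1 CPM or more in any library. These 5 windows are printed in the direction of transcription, with the full CRE in capitals.
Btg2: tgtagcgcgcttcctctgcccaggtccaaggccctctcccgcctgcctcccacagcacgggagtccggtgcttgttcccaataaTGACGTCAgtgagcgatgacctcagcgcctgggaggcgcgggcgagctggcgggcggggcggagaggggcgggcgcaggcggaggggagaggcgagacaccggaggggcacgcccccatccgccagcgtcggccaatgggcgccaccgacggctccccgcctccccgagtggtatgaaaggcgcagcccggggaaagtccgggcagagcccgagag
Dusp8: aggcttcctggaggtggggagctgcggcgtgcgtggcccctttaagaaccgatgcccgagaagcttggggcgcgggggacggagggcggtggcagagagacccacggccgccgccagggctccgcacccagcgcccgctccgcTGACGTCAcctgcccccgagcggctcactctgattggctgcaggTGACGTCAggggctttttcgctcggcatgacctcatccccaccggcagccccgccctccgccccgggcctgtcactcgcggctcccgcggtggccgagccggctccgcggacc
Ell2: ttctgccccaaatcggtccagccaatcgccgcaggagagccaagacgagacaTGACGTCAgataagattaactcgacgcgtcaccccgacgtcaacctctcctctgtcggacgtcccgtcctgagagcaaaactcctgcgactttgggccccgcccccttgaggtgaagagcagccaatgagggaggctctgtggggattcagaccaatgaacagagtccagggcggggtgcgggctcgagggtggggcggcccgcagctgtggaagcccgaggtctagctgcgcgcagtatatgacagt
Plk2: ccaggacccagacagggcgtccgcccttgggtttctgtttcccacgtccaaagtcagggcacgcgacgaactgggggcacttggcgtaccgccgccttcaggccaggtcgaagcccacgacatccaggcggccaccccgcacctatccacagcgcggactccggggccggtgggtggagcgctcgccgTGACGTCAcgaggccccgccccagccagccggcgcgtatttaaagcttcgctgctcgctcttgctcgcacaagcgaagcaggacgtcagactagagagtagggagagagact
Zdbf2: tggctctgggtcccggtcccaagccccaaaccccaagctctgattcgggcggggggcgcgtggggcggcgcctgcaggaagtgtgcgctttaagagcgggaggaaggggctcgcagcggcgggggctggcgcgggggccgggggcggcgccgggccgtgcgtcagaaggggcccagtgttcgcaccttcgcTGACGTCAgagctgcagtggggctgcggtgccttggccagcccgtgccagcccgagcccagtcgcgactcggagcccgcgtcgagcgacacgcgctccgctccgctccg
The regions were chr1:134079106-134079405 (minus strand) for Btg2, chr7:142095235-142095534 (minus) for Dusp8, chr13:75707234-75707533 (plus) for Ell2, chr13:110394794-110395093 (plus) for Plk2 and chr1:63273019-63273318 (plus) for Zdbf2. In Plk2 and Zdbf2 the element lay at -62 to -55 and at -59 to -52, counted from the transcription start. Dusp8 held a pair of elements, at -107 to -100 and at -63 to -56. In Btg2 and Ell2 the element lay farther out, at -166 to -159 and at -198 to -191.

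The shorter core TGACG, of which each full CRE holds 2 overlapping copies on opposite strands, was present in 17 of the 27 genes, or 63.0%. It was present in 23.0% of all genes in the table and in 33.6% of those at 1 CPM or more. Crem and Sik1, described below as CREB targets, are not among the 17. Each of them either lacked a match or had no window. The AP-1 site TGANTCA, which shares no match with the full CRE, was present in 5 genes, 18.5% against 8.97% and 6.36%, and Srxn1 and F3 each held 2. The TATA box TATAAA was in 6 genes, 22.2% against 15.7% and 9.17%. Neither the NBRE (AAAGGTCA), the EGR site (GCGTGGGCG), the SF1 site (TCAAGGTCA) nor the CArG box was found in these windows of the 27 genes, on either strand. The windows were also rich in G and C: their median was 64.7%, against 52.7% in the table and 60.3% for genes at 1 CPM or more, and 72.0% in the 5 windows with a full CRE. The part of base composition in the motif counts was not tested. A match is a string of letters and not a bound site, and the libraries hold no measure of binding.

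**Figure D1:**
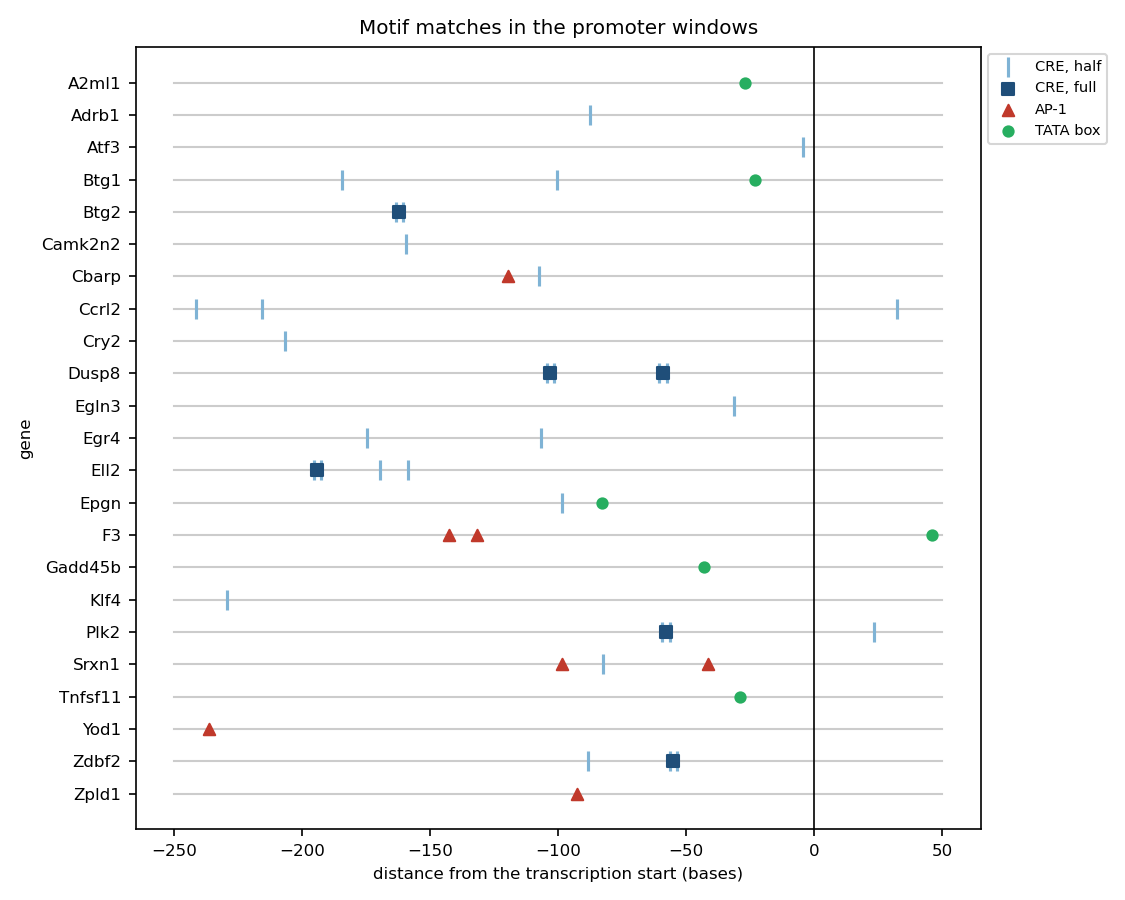
Motif matches in the promoter windows of the genes that held any of the plotted motifs; the horizontal axis is the distance from the transcription start in bases, each row is 1 gene and each symbol is a match on either strand. The 5 genes with a full CRE (dark squares) are Btg2, Dusp8, Ell2, Plk2 and Zdbf2, and the 3 marks of Ccrl2 are 1 site seen from 3 overlapping windows with different starts.

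In KO replicate 3 the 37 genes summed to 4701 CPM, against 782 to 911 CPM in the other libraries. The ratio of KO replicate 3 to the highest other library had a median of 5.16. It was over 10 for 5 genes, between 5 and 10 for 16 and under 5 for 16. Most were not silent elsewhere: 23 of the 37 stood at 5 CPM or more in every other library, and 3 (Epgn, Egr4 and Arc) stayed under 1 CPM in each. All 37 are protein coding and they lie on 20 chromosomes, at most 4 on any. Just inside the fold threshold were Rhox8 (3.01), Zpld1 (3.04) and Comp (3.19), and just outside it Arrdc3 (2.96), Pde4d (2.96) and Epha4 (2.95). Just inside the level threshold were Egr4 (5.60 CPM), Epgn (6.83) and Zdbf2 (7.14), and just outside it Akap2 (4.73), Cfap44 (2.89) and 1700016P03Rik (2.55).

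**Figure D2:**
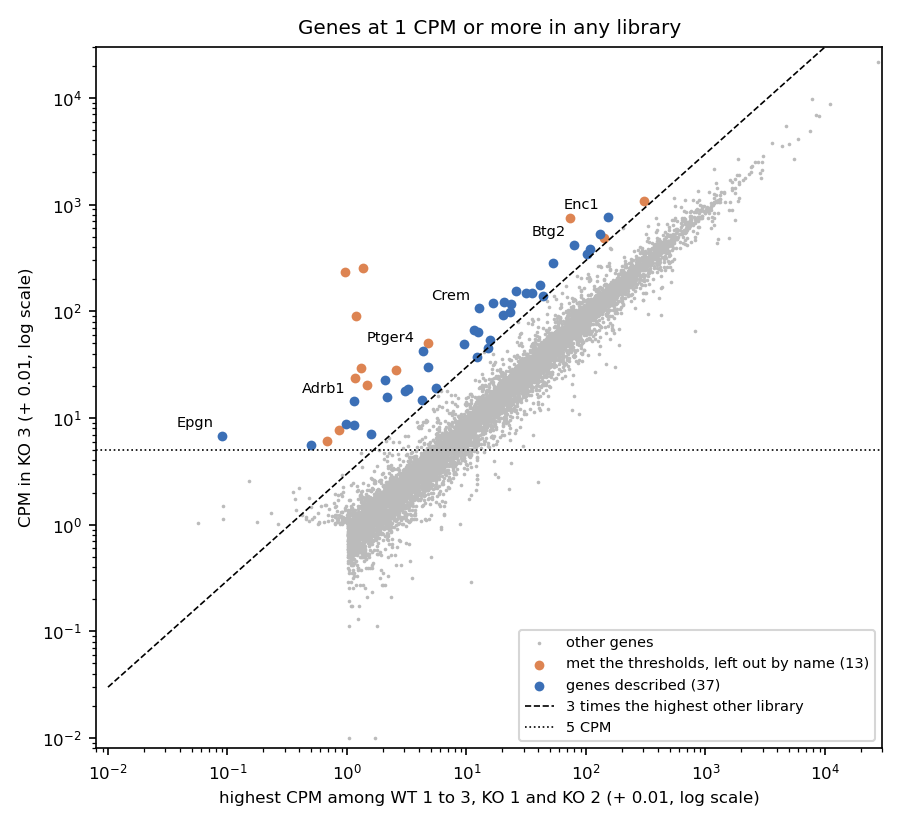
CPM of each gene in KO replicate 3 (vertical, log scale) against the highest CPM among the other 5 libraries (horizontal, log scale), with 0.01 CPM added to both; blue points are the 37 genes described, orange points the 13 left out by name, grey points all other genes at 1 CPM or more. The lines mark the selection at 5 CPM and at 3 times the highest other library, so the place of the coloured points follows from the selection.

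Of the 37 genes, 8 encode secreted signals or cell-surface proteins. Among the ligands, Epgn encodes epigen, an EGF-family ligand related to amphiregulin and epiregulin, the EGF-like factors that pass the LH signal to the cumulus. Epgn (ENSMUSG00000035020, chr5:91027464-91035215, GRCm38) had 4, 2 and 1 counts in WT replicates 1 to 3, 2 counts in each of KO replicates 1 and 2, and 338 counts in KO replicate 3. It was close to undetected in 5 libraries and at 6.83 CPM (95% exact Poisson interval 6.12 to 7.60, counting error only) in the sixth. The ratio to the highest of the others was 85.2, with an exact binomial counting interval of 33.0 to 315. On the chromosome, Epgn ended 39.4 kb before Ereg and Ereg ended 46.0 kb before Areg. This run of 3 EGF-family genes met the thresholds together, while Btc, Hbegf and Tgfa, of the same family, did not. Of the pairs of the 50 genes on 1 chromosome, the only other neighbours within 1 Mb were Cbarp and Gadd45b, 789 kb apart.

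Pthlh encodes parathyroid hormone-related protein, a secreted peptide whose receptor also raises cyclic AMP. Its level was 1.12, 1.22 and 0.998 CPM in the WT libraries, at 2.06 and 1.39 CPM in KO replicates 1 and 2 and at 22.5 CPM in KO replicate 3 (ENSMUSG00000048776, chr6:147252101-147264183). The 5 other libraries were all low, and the 2 other KO libraries lay above the WT libraries. Tnfsf11, which encodes RANKL, the cytokine that drives osteoclast formation and acts on mammary epithelium, stood at 1.51 to 2.16 CPM in the 5 libraries and at 15.6 CPM in KO replicate 3, a ratio of 7.19.

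A pair of receptor genes that couple to the same second messenger as the LH receptor were among the 37. Ptger4 encodes EP4, a receptor for prostaglandin E2 that raises cyclic AMP. Its level (ENSMUSG00000039942, chr15:5206661-5244187) was 3.31, 2.73 and 3.46 CPM in the WT libraries, 4.28 and 3.37 CPM in KO replicates 1 and 2, and 42.8 CPM in KO replicate 3. Its 5 other libraries were all low. Adrb1 encodes the beta-1 adrenergic receptor and had 1.08, 1.05 and 1.12 CPM in the WT libraries, 1.07 and 1.13 CPM in KO replicates 1 and 2, and 14.3 CPM in KO replicate 3 (ENSMUSG00000035283, chr19:56722372-56724862). Adrb1 had the steadiest level of the 37 in the other 5 libraries, with a coefficient of variation of 3.15%, and its ratio was 12.6. Of the other receptors for prostaglandins, Ptger2, which encodes EP2 and is known to act in the cumulus, stood at 3.94 CPM in KO replicate 3 and at 4.46 to 5.40 CPM elsewhere.

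The remaining surface genes were more abundant. F3 encodes tissue factor, the membrane protein that starts blood coagulation. It stood at 31.6 to 52.8 CPM in the other libraries and at 282 CPM in KO replicate 3. Ccrl2 encodes an atypical chemokine receptor that binds chemerin, and its level was 13.4 to 20.8 CPM elsewhere and 123 CPM there. Flrt3, which encodes a membrane protein of cell adhesion and of fibroblast growth factor signalling, stood at 9.42 to 11.5 CPM and 66.9 CPM. Flrt3 fell outside the rule for named genes, as did Gm13889, Ell2, Zdbf2, Cbarp and Yod1, and these 6 are named after their values were seen.

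The matrix was represented by only 3 of the 37 genes, with modest ratios for 2 of them. Comp, which encodes cartilage oligomeric matrix protein, stood at 17.1 to 43.5 CPM elsewhere and at 138 CPM in KO replicate 3. Zpld1, which encodes a membrane protein with a zona pellucida-like domain, stood at 5.38 to 12.3 CPM and at 37.4 CPM. A2ml1, which encodes a protease inhibitor of the alpha-2-macroglobulin family, was at 0.163 to 1.14 CPM elsewhere and 8.67 CPM there. The 5 other libraries varied most for A2ml1, with a coefficient of variation of 87.7%.

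Genes of transcription and RNA control made up 9 of the 37. Crem, a CREB-family gene that is itself a CREB target and also yields the repressor ICER, had the largest ratio among these 9 after Egr4. Crem (ENSMUSG00000063889, chr18:3266048-3337748) was at 12, 10.8 and 10.2 CPM in the 3 WT libraries, at 12.6 and 10.4 CPM in KO replicates 1 and 2, and at 108 CPM in KO replicate 3. The 5 others lay within 10.2 to 12.6 CPM, and the ratio was 8.51. The counts do not separate the full-length Crem transcripts from those of ICER. Egr4, which encodes a zinc finger factor of the early growth response family, was at 0.0944 to 0.493 CPM elsewhere and at 5.60 CPM in KO replicate 3. Klf4, a zinc finger factor that responds early in many cells, stood at 7.07 to 12.6 CPM and at 63.6 CPM, and Atf3, a stress-responsive factor of the CREB and ATF family, at 3.11 to 4.26 CPM and at 14.7 CPM.

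Btg2 and Btg1 encode antiproliferative proteins that recruit the deadenylase which shortens mRNA tails. Btg2, whose promoter with a full CRE is printed above, stood at 59.7, 64.7 and 79.2 CPM in the WT libraries, at 54.8 and 72.5 CPM in KO replicates 1 and 2 and at 422 CPM in KO replicate 3. Btg1 stood at 108 to 130 CPM and at 526 CPM. Both were abundant in all 6 libraries, and the WT and KO libraries other than KO replicate 3 overlapped for Btg2. Ell2, which encodes a factor of transcription elongation, stood at 16.4 to 20.2 CPM elsewhere and at 92.5 CPM in KO replicate 3. Cry2, a repressor of the circadian clock, stood at 28.8 to 35.6 CPM and 148 CPM, and Rhox8, a reproductive homeobox gene of the X chromosome, at 10.8 to 15 CPM and 45.3 CPM.

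A further 9 genes encode intracellular signalling proteins, several of which are known as negative feedback. Sik1, which encodes salt-inducible kinase 1, is a CREB target whose product phosphorylates the CREB coactivators and so restrains them. It stood at 22.1, 18.8 and 24.4 CPM in the WT libraries, at 22 and 31.7 CPM in KO replicates 1 and 2, and at 149 CPM in KO replicate 3 (ENSMUSG00000024042, chr17:31844248-31855792). The ratio was 4.69, and KO replicate 1 lay within the WT libraries. Dusp8, which encodes a phosphatase of stress-activated MAP kinases, stood at 2.26 to 3.26 CPM in the WT libraries, at 3.8 and 5.5 CPM in KO replicates 1 and 2 and at 19.0 CPM in KO replicate 3. Plk2, a polo-like kinase, stood at 13.5 to 16.5 CPM elsewhere and at 121 CPM there, a ratio of 7.31.

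Rasd1, a small GTPase first known for its induction by dexamethasone, had the highest level per length of the 37 in KO replicate 3, at 213 CPM per kilobase of exon. Its level was 71.5 to 102 CPM in the other libraries and 343 CPM in KO replicate 3. Gadd45b, a stress and growth-arrest gene, stood at 26.7 to 41.5 CPM and 174 CPM, and Ccng2, an unconventional cyclin linked to cell cycle arrest, at 86.1 to 108 CPM and 387 CPM. Regulators of calcium signalling were present: Camk2n2, which encodes an inhibitor of the kinase CaMKII, stood at 2.04 to 3.06 CPM and 18.0 CPM, and Cbarp, which encodes a regulator of voltage-gated calcium channels, at 18.1 to 23.2 CPM and 98.8 CPM. Arc, an activity-regulated gene of neurons, was at 0.308 to 0.967 CPM elsewhere and at 8.77 CPM in KO replicate 3.

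The last group of 6 concerned oxygen, redox, metabolism and protein turnover. Enc1, which encodes a kelch-repeat protein that binds actin, was the most abundant of the 37 in CPM, with 83.0 to 151 CPM elsewhere and 766 CPM in KO replicate 3. Srxn1, which encodes sulfiredoxin, the enzyme that restores oxidised peroxiredoxins, stood at 17.5 to 26.1 CPM and 155 CPM. Egln3, which encodes a prolyl hydroxylase of the hypoxia-inducible factors, stood at 2.88 to 4.73 CPM and 30.3 CPM. Osgin2, a gene of the oxidative stress-induced growth inhibitor family, stood at 20.3 to 23.7 CPM and 117 CPM, and Yod1, a deubiquitinase, at 12.6 to 15.7 CPM and 54.0 CPM. The 2 genes in no group were Zdbf2, an imprinted gene, at 7.14 CPM in KO replicate 3, and the predicted gene Gm13889 at 49.5 CPM.

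**Figure D3:**
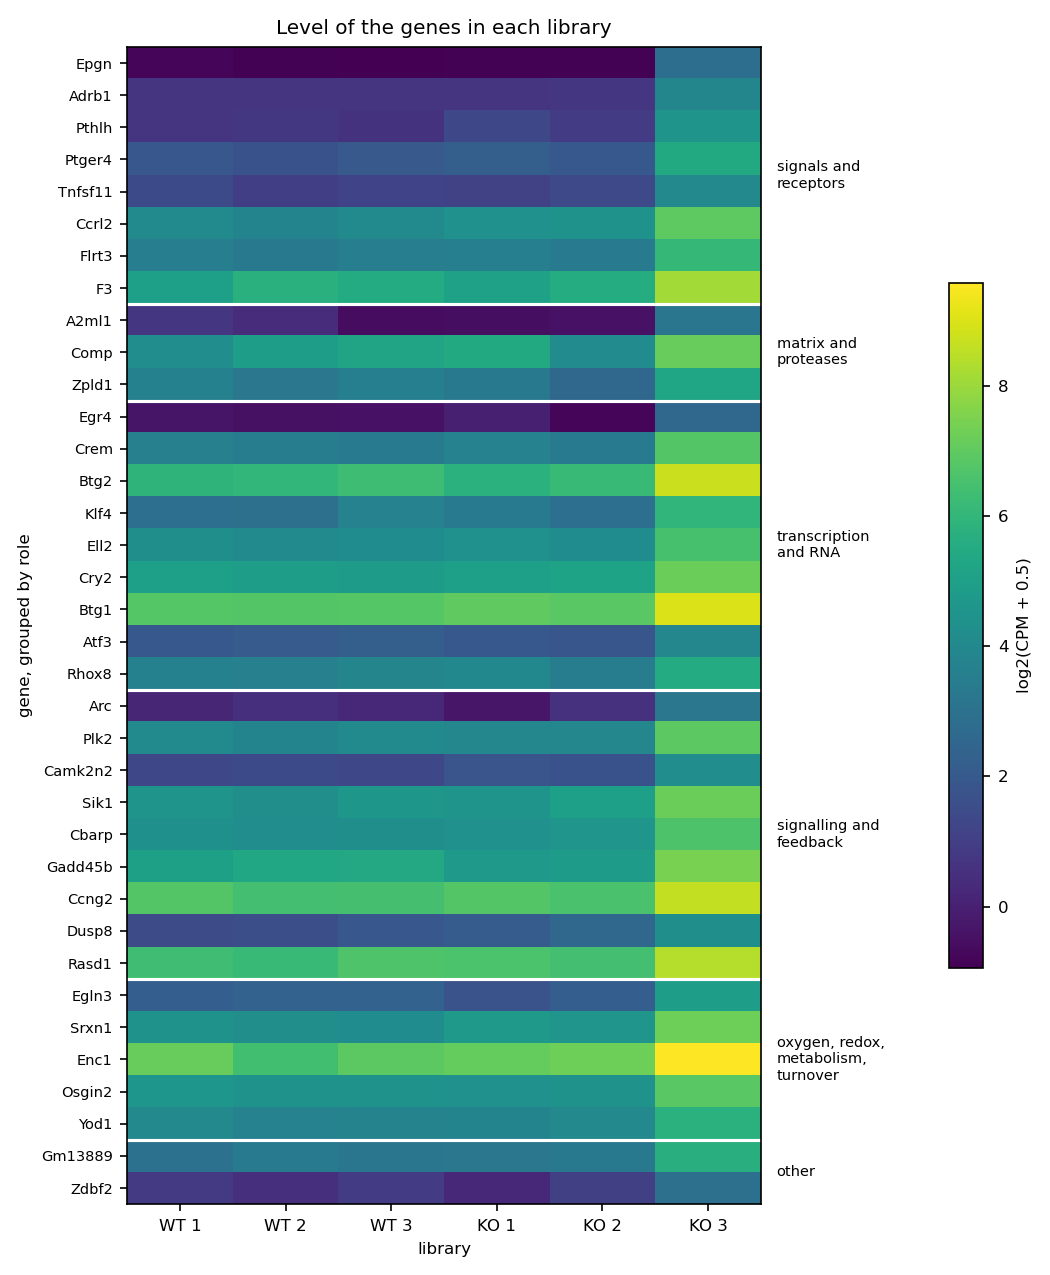
Level of 36 of the 37 genes (rows, grouped by role) in each of the 6 libraries (columns), with colour as log2 of CPM + 0.5. The brighter column of KO replicate 3 follows from the selection, and the other 5 columns differ less. Their median coefficient of variation was 16.2% over the 37 genes, above the 8.91% over all genes at 1 CPM or more.

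A comparison in which KO replicate 3 took no part asked whether the genes also differed between the other KO libraries and WT. The selection treated those 5 libraries alike, so it did not fix a direction there. In edgeR's quasi-likelihood test over 18622 genes with Benjamini-Hochberg adjustment, Ccrl2, Srxn1 and Dusp8 were higher in KO replicates 1 and 2 than in the WT libraries. These were 3 of 36 genes fitted, Epgn having too few counts, beside 1.74% of all genes tested that were higher and 0.521% that were lower. None of the 36 was lower at the adjusted threshold in edgeR or in DESeq2. At an unadjusted p under 0.05, 10 of the 36 passed, against 15.7% of all genes, and among these 10 Gadd45b was the lower one.

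Ccrl2 rose from 15.4 ± 1.74 CPM (SD, n = 3) to 20.6 ± 0.204 CPM (n = 2), a log2 fold change of 0.47 ± 0.11 (SE; adjusted p = 0.0223, edgeR), and both KO libraries lay above all WT libraries. Srxn1 rose from 19.0 ± 1.59 to 24.5 ± 2.18 CPM, with 0.43 ± 0.10 (adjusted p = 0.0357, edgeR). Dusp8 rose from 2.68 ± 0.519 to 4.65 ± 1.20 CPM, with 0.84 ± 0.20 (adjusted p = 0.0326, edgeR). For these 3 genes the label of high in KO replicate 3 alone was therefore incomplete, although the steps in KO replicates 1 and 2 were small beside that of KO replicate 3. Each call rested on single libraries: without WT replicate 2 none of the 3 was called (adjusted p = 0.112, 0.133 and 0.185 for Ccrl2, Srxn1 and Dusp8, edgeR), and without KO replicate 1 Ccrl2 stood at an adjusted p of 0.321, Srxn1 at 0.598 and Dusp8 at 0.0637 (edgeR).

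Over the 36 fitted genes the log2 fold change of KO replicates 1 and 2 against WT ran from -1.70 (A2ml1) to 0.84 (Dusp8) with a median of 0.13, beside -0.01 over all genes, and 24 were positive. Both KO libraries lay outside the WT range, on the same side, for 12 of the 37 genes, 9 above and 3 below. Over all genes at 1 CPM or more that share was 36.8%. Gadd45b was among those below, with 37.6 ± 4.79 CPM in WT and 28.0 ± 1.80 CPM in KO replicates 1 and 2 (log2 fold change -0.38, adjusted p = 0.0766, edgeR). Without WT replicate 1 it was called lower (-0.48, adjusted p = 0.00788, edgeR).

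**Figure D4:**
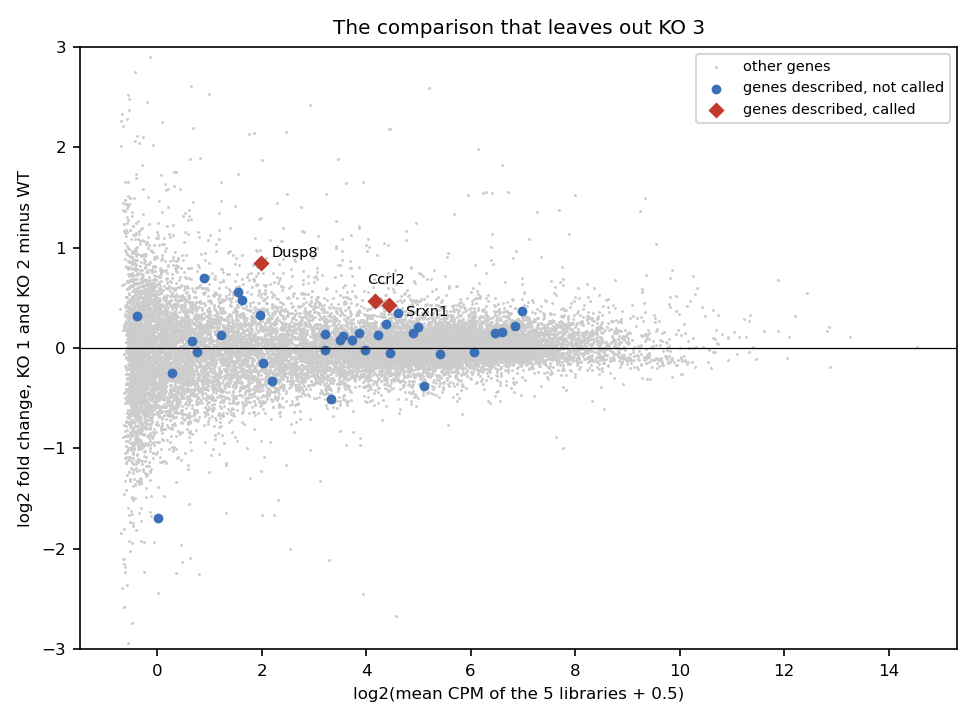
Log2 fold change of KO replicates 1 and 2 against the WT libraries (vertical) against the mean level of these 5 libraries (horizontal, log2 of CPM + 0.5); grey points are all genes tested, blue points the 37 genes where fitted, and red diamonds those called. Ccrl2, Srxn1 and Dusp8 lie above 0 and the other genes lie on both sides of it.

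The study's own comparison of KO against WT, with all 6 libraries, holds the values that chose the genes, so its signs, spread and p-values for them are shaped by the selection and nothing is read from them. It called none of the 36 fitted genes in edgeR, where 0.126% of 18250 genes were called higher and 0.0932% lower. At an unadjusted p under 0.05, 1 of the 36 passed, beside 9.16% of all genes, and DESeq2 called none, with 7 at an unadjusted p under 0.05. All 36 fold changes were positive, from 0.73 to 3.10 with a median of 1.54 as the selection fixes. The 2 comparisons share 5 libraries.

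The wider LH response was read from 6 lists of genes known for a part in ovulation, 102 genes in all, of which 96 reached 1 CPM and 7 are among the 37. None of the 23 names set aside is on these lists, so the lists lack genes that met the thresholds, such as Areg and Ereg among the ligands, Has2 and Tnfaip6 of the matrix, Ptgs2 and Pgr. KO replicate 3 stood at least 1.5 times above every other library for 18 of the 96, or 18.8%, beside 1.89% of all genes at 1 CPM or more. Without the 7, which had to pass, 11 of 89 did so, or 12.4%. Creb5 is 1 of these 11 and reached 1 CPM through KO replicate 3 alone, and without it the count is 10 of 88, or 11.4%. It stood at least 1.5 times below every other library for 5, or 5.21%, beside 1.36% of all genes. Outside the 7 selected genes it was the highest of the 6 libraries, by any margin, for 32 of the 89, or 36.0%, and the lowest for 19, or 21.3%, beside 15.6% and 29.2% of all genes. The median log2 ratio to the mean of the others over the 96, selected genes included, was 0.09, with -0.05 over all genes. These lists were written with earlier results of these libraries known and are described by counts alone.

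No test of the difference between lists was made, and each is described by itself. Selected genes are counted in the list medians, which were not recomputed without them. Regulators that feed back on cyclic AMP and ERK signalling had the highest median of the 6, 0.43, with 7 of 20 genes at least 1.5 times above every other library. Beside Sik1 these were Pde4d (18.1 CPM against 4.01 to 6.11 elsewhere) and Pde4b, phosphodiesterases that break down cyclic AMP, Errfi1 (84.4 against 27.4 to 40.0), an inhibitor of the EGF receptor, and Rgs2, Dusp6 and Per1. Dusp1, a phosphatase that responds to many stimuli, was at 46.0 CPM in KO replicate 3 and at 46.4 to 58.9 CPM elsewhere. Ovulatory transcription factors had a median of 0.24, with 7 of 21 above by that margin, 3 of them (Crem, Klf4 and Atf3) selected. The highest outside the 37 were Cebpa (210 CPM against 82.5 to 107) and Creb5 (2.26 against 0.757 to 0.917), which had to stand high to be counted. Runx2, a factor of the luteinizing follicle, was the one below, at 33.1 CPM against 57.8 to 85.4.

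Of 20 genes of ovulatory matrix and proteolysis, a list without Has2 and Tnfaip6, none was 1.5 times above every other library, and the median was 0.02. Adamts1, the protease that cleaves versican, stood at 136, 327 and 240 CPM in the WT libraries, 133 and 311 CPM in KO replicates 1 and 2 and 455 CPM in KO replicate 3, so the others spread widely below it. Vcan, which encodes versican itself, was at 554 CPM against 321 to 384, while Mmp19 was at 3.13 CPM against 5.25 to 7.97. Ptger4, a selected gene, was the 1 of 12 above on the prostaglandin list without Ptgs2, whose median was -0.08, and Ptgs1 was below, at 6.95 CPM against 12.1 to 36.2. Of 10 ligands and cytokines, a list without Areg and Ereg, Epgn was the one above, as selected, and the median was -0.33. Fgf2, a fibroblast growth factor, was the one below by that margin, at 3.07 CPM against 4.79 to 7.06. The chemokine Cxcl1 and the peptide Adcyap1 were low in all KO libraries. The WT libraries held 3.49 to 5.54 CPM of Cxcl1, and the KO libraries 2.06, 1.65 and 1.64 CPM. For Adcyap1 these levels were 5.21 to 12.1 CPM, then 1.46, 2.24 and 2.39 CPM.

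Among 13 other genes listed as raised by LH or by the progesterone receptor, Pthlh, a selected gene, and Inhba were above (2144 CPM for Inhba against 897 to 1187). Inhba is also on the list of genes raised by follicle-stimulating hormone and among the granulosa markers, so it does not stand for LH alone. Abcb1b was below (93.3 CPM against 206 to 328). Snap25, a progesterone receptor target, stayed at or under 0.142 CPM in every library, and Sult1e1 was at 0.465 CPM in KO replicate 3 and at most 0.102 CPM elsewhere. The progesterone receptor gene itself is one of the 13 left out by name. Star, which brings cholesterol into steroid synthesis, was at 600.4 CPM in KO replicate 3, inside the 341 to 1123 CPM of the others.

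Genes that LH is known to lower were mostly at their highest in KO replicate 3. Of 14 such genes, 10 were higher there than in every other library and 1, Amh, was lower than in every other, at 700.2 CPM against 816 to 1126. Over all genes at 1 CPM or more, 15.6% were highest there and 29.2% lowest. Several of the 14, such as Fshr, Foxl2, Esr2, Nr5a2 and Hsd17b1, are also granulosa markers, a list that ran high as well. Kitl, the ligand of the oocyte receptor KIT, stood at 281 CPM against 117 to 157, and Nppc, which encodes the peptide that holds the oocyte in meiotic arrest, at 89.0 CPM against 44.2 to 59.0. The LH receptor gene Lhcgr was at 489 CPM against 310 to 704. Genes raised by follicle-stimulating hormone (FSH), which also acts through cyclic AMP, had a median of 0.43, with 9 of 15 above every other library. Cyp19a1, which met the thresholds and was set aside by name, is on neither the LH-lowered nor the FSH list. Fst, an activin-binding protein, was at 1338 CPM against 728 to 860, while Sgk1 was at 155 CPM against 256 to 366. General targets of cyclic AMP and CREB had the highest median of the 12 process lists, 0.75, with selected genes included, so the selection has a part in it. Of 12 such genes, 6 were at least 1.5 times above every other library, 2 of them (Crem and Sik1) selected. Some lists share genes. Sik1, Per1, Pde4d, Rgs2 and Dusp1 are also among the feedback regulators, and Crem among the transcription factors. Lhcgr, Hsd17b1, Ccnd2, Nr5a2 and Inhbb are on both the LH-lowered and the FSH list. Inhba is on the FSH list and on that of other genes raised by LH or the progesterone receptor. The medians and counts of these lists are therefore not separate observations.

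Another 3 lists concern other stimuli that raise early genes. Genes of dissociation and heat stress had a median of 0.37. Beside 15.6% of all genes, 9 of these 13 were above every other library, Btg2 and Atf3 among them by selection. Of these, Ier3 passed 1.5 times, as did Btg2 and Atf3, for which the selection fixed it. Hspa1a, a heat shock gene with a near-identical copy, stood at 92.0 CPM against 46.4 to 80.5. The inflammatory list had a median of -0.04, with Tnfaip3 (9.14 CPM against 3.24 to 4.47) and Ier3 above. The hypoxia and glycolysis list had a median of 0.14, with 10 of 17 genes above every other library and 1 below. Its summed level was 3762 CPM against 2984 to 3442. The selected gene Egln3 alone was above by 1.5 times, and Car9, a standard hypoxia target, was at 6.59 CPM against 6.54 to 11.8.

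Markers of endothelial, immune, stromal, smooth muscle and epithelial cells were mostly at their lowest in KO replicate 3. Of all genes at 1 CPM or more, 29.2% had their lowest level of the 6 libraries there. The same held for 10 of 12 endothelial markers, 13 of 14 immune markers, 8 of 9 stromal fibroblast markers, 8 of 9 smooth muscle and pericyte markers and 10 of 11 epithelial markers. Their summed levels were 172 CPM against 204 to 346 (endothelial), 250 against 332 to 475 (immune), 1274 against 1528 to 1731 (fibroblast), 228 against 281 to 357 (smooth muscle) and 444 against 600 to 783 (epithelial). None of these markers was at 0 in any library. The 14 granulosa markers had a median log2 ratio of 0.23, with 9 above every other library, beside 15.6% of all genes. The cumulus markers had 0.09, and the theca markers -0.19 against -0.15 to 0.23 in the other libraries. Of 9 theca markers 5 were at their lowest there, but their summed level, 1497 CPM, lay inside the 964 to 1867 CPM of the others. For other markers KO replicate 3 lay inside the range of the other libraries. The medians were -0.22 (luteal, others -0.44 to 0.48), -0.13 (oocyte, others -0.31 to 0.39) and -0.43 (red blood cell, others -1.47 to 0.998). In RNA from a mixed preparation, fewer cells of a type and less RNA per cell cannot be told apart. The part of the cell mix in the levels of the 37 genes was not tested.

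**Figure D5:**
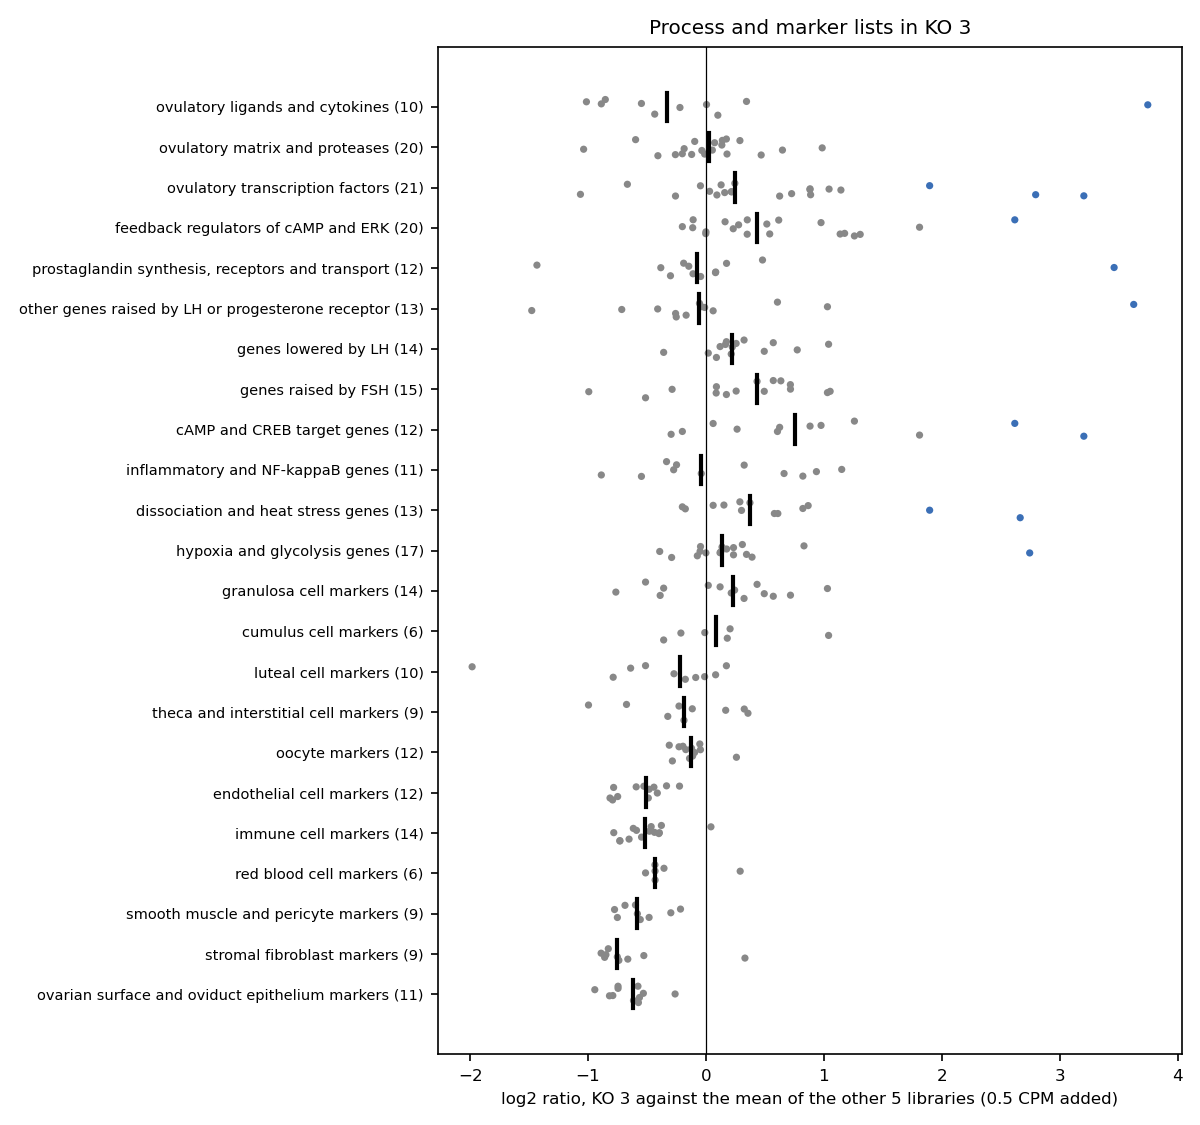
Log2 ratio of KO replicate 3 to the mean of the other 5 libraries (horizontal, 0.5 CPM added) for each gene at 1 CPM or more of 12 process lists and 11 marker lists (rows, number of genes in brackets); grey points are genes, blue points those among the 37 selected, and black bars list medians. The medians, selected genes included, run from 0.75 for targets of cyclic AMP and CREB to -0.75 for stromal fibroblast markers.

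As a group, though not gene by gene, the 37 differed from other genes in features that the selection did not use. The comparison genes were not matched to them on level, and the differences were not tested. The median span was 10385 bases (range 1392 to 72812) against 24922 for protein-coding genes at 1 CPM or more. The median exon length was 2820 against 4173 bases. The element TATTTAT, a short form of the AU-rich sequences found in unstable mRNAs, occurred in the 3′ untranslated region of 20 of the 37, or 54.1%, against 30.4% of 13807 genes at 1 CPM or more. The median length of that region was similar, 1186 against 1190 bases. Among regions of 1000 to 3000 bases the shares were 61.1% (11 of 18 genes) and 37.1% (of 5510 genes). Yod1 held 6 copies and Enc1 held 5, while Sik1, Btg1, Klf4 and Epgn held 0. Only 9 of the 37 were on any of the process lists, so 28 belong to none of the groups described above by list.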

How the data were processed

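RNA of 6 libraries was measured, 3 labelled WT and 3 labelled KO, grouped by their labels. The deposited files hold whole-number counts per gene, not normalized. Trimmomatic 0.36, STAR 2.5.2b, featureCounts (Subread 1.5.2) and GRCm38 are named, per the submitters' processing notes. Their strand setting and annotation release are not stated, so genes that overlap or have copies are uncertain. Of 49315 gene IDs, 48970 were matched to a symbol; coordinates are those of the count files.

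CPM are counts scaled by the plain column sum, and 1 CPM was 42.4 to 49.9 counts. Ratios of lists used log2 of CPM + 0.5. Intervals are exact at 95% and cover counting error alone. KO against WT was tested in edgeR 4.0.16 (R 4.3.3; TMM, filterByExpr, robust quasi-likelihood, adjusted p under 0.05), with and without KO replicate 3. The steps were checked on simulated counts. Promoters came from RefSeq (GRCm38.p6), and 3′ untranslated regions from GENCODE M21. Python 3.11.15 and pandas 2.3.3 were used for the rest.

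The 37 genes, 23 gene lists and all tests were chosen with earlier results of these data known. Genes were named if on a process list, among the 15 highest in CPM or the 15 highest in ratio, next to the fold threshold, or called without KO replicate 3. Of other list genes, the extremes of each list were to be named; Fgf2, Pde4b, Rgs2, Dusp6, Per1, Dusp1, Star, Lhcgr, Ptger2, Snap25, Fst, Ier3, Hspa1a and Tnfaip3, where not extremes, were picked after their values were seen. Of the 37 genes, 1 is counted but not reported here by name. Alternatives were other scalings, filters and thresholds, DESeq2 1.42.0, a replicate block and leaving out each library.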

Additional observations from a re-analysis of the deposited data

How the results depend on the processing

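The number of selected genes was 91 at a fold of 2 and 21 at a fold of 5. It was 32 to 42 at a level of 10 or 2 CPM and 39 under TMM or DESeq2 scaling, of which 36 were shared; without 1 other library it was 38 to 41. The 3 calls in KO replicates 1 and 2 against WT became 2 under RLE, 3 under DESeq2 (the same genes), 0 under upper-quartile scaling, 7 with no filter and 0 with a mean of at least 1 CPM. They were 0 to 3 when each library was left out in turn. All genes called in that comparison ranged from 82 (without WT replicate 3) to 1136 (no filter), beside 421. The count with all 6 libraries, 0, ranged from 0 to 3 when each was left out, the 3 coming without KO replicate 3. It was 0 under each other setting, replicate block included. Same-numbered libraries of the groups had correlations of deviations of -0.05, 0.11 and -0.11, and differently numbered ones -0.12 to 0.14. KO replicate 3 enters every deviation of the KO group, so these values cannot decide whether the numbers pair the libraries. With the replicate block the count without KO replicate 3 was 3, of which 2 were shared (Ccrl2 and Dusp8; A2ml1 took the place of Srxn1, adjusted p = 0.0920, edgeR). Genes called under other settings alone were A2ml1, Gadd45b and Zpld1, all lower, and Sik1, higher. None of the 10 genes at an unadjusted p under 0.05 changed sign in the settings tried. Of 207 recomputed list medians, 198 moved by less than the spread between libraries. The 3 that changed sign belonged to the inflammatory list (-0.04, 0.14 with a mean of at least 1 CPM), the other LH or progesterone receptor list (-0.06, 0.02 without KO replicate 2) and the matrix list (0.02, -0.0023 without WT replicate 3). The cause of these shifts was not tested. Genes of few counts, such as Epgn, Egr4 and Arc, are limited by depth in the 5 other libraries.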
